A study of Mus musculus with 20 samples.

Results

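The genes described here are the enzymes that make cholesterol and the genes of the SREBP pathway that controls them, in mouse ovaries of different ages and after HEP14. They were taken from a fixed list of 28 gene symbols, of which 26 were found among the 17651 genes of the table, and Pmvk and Srebf1 were not analysed here. Of the 26 genes, 17 are enzymes of sterol synthesis, from Acat2 to Dhcr7. The other 9 are the regulators Srebf2, Insig1, Insig2 and Scap and the transport and lipid genes Stard4, Lpin1, Ggps1, Fasn and Acaca. RNA of whole ovaries of WT mice was sequenced in 20 libraries. The 5 groups, with 4 libraries each, were young mice of 7 to 8 weeks, adult mice of 27 to 28 weeks given HEP14 and adult mice of that age without it, and aged mice of 73 to 74 weeks given HEP14 and aged mice of that age given vehicle. HEP14 is a compound of plant origin, known as an activator of protein kinase C that promotes the formation of lysosomes. The adult HEP14 group is known from the titles and descriptions of the samples alone, and the labels do not say whether the other adult mice received vehicle. Dose, route and duration were not given in the sources used here. The labels do not say that the libraries of a group came from separate animals, so p-values measure the spread between these libraries, which may be technical.

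Cells make cholesterol from acetyl-CoA in a long chain of reactions, through mevalonate, the isoprenoid farnesyl diphosphate, squalene and lanosterol. The membrane-bound transcription factors called SREBPs are held in the endoplasmic reticulum by INSIG proteins when sterols are plentiful. When sterols run low, SCAP escorts them to the Golgi, where proteases release the part that enters the nucleus and turns on the enzymes. In the ovary, cholesterol is the starting material of progesterone and oestrogens, and the corpus luteum, the gland left after ovulation, uses much of it.

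SREBPs bind a short sterol element in promoters and act together with NF-Y, a factor that binds the CCAAT box, so promoter sequences are shown for 5 genes whose values differed in different ways below. Promoter sequences from RefSeq (GRCm38.p6) were matched for 22 of the 26 genes, and none was matched for Fdps, Fdft1, Sqle and Stard4. The 250 bases before the annotated start are printed 5′ to 3′ on the strand of the gene, with capitals for CCAAT boxes (CCAAT or its complement ATTGG) and for the sterol element TCACNCCAC on either strand. The windows are chr13:119690101-119690350 on the plus strand for Hmgcs1, chr8:64733579-64733828 on the minus strand for Msmo1, chr1:169969206-169969455 on the minus strand for Hsd17b7, chrX:72918271-72918520 on the plus strand for Nsdhl and chr12:16610967-16611216 on the minus strand for Lpin1.
Hmgcs1: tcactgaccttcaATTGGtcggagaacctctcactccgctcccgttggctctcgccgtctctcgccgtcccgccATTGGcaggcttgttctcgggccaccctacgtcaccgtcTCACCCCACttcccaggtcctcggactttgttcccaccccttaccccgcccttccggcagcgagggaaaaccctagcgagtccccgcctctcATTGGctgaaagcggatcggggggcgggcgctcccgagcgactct
Msmo1: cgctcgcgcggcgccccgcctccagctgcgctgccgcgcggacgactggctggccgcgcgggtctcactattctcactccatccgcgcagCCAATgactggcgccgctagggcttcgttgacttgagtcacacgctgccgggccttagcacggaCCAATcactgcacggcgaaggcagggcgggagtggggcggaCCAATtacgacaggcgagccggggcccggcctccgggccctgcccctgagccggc
Hsd17b7: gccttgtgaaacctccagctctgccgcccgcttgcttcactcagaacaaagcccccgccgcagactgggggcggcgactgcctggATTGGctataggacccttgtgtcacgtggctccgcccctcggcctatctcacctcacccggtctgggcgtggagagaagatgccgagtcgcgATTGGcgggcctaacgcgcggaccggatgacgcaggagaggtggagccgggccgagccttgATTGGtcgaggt
Nsdhl: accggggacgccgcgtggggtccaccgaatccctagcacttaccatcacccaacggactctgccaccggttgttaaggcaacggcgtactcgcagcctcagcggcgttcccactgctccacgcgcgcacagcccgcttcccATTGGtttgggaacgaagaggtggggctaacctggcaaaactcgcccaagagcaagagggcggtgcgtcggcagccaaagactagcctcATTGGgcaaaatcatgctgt
Lpin1: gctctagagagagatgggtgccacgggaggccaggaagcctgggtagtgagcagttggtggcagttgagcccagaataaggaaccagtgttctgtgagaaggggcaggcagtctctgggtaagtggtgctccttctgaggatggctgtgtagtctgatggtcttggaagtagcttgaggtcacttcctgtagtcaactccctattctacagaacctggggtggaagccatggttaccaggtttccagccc
A CCAAT box was found in 18 of the 22 genes (81.8%) and in 13 of the 14 sterol synthesis enzymes with a sequence (92.9%). Among the 11541 genes of the table with a promoter sequence, 39.1% held one, and of all 32851 promoter windows 33.8% did. The 4 genes without the letters in this window were Acat2, Scap, Lpin1 and Acaca. The sterol element was found in 1 of the 22 genes (4.55%), against 1.36% of the genes of the table and 1.05% of all windows. It was TCACCCCAC in the Hmgcs1 promoter, 137 bases before the start and between CCAAT boxes 176 and 45 bases before it. The E-box CACGTG, which reads the same on both strands, was found in 5 of 22 genes (22.7%), against 9.02% of the genes of the table. E-boxes are left in lower case in the printed promoters, and none of the capitalised matches overlapped. A match describes these letters and not a bound site. The starts are those of RefSeq. In the GENCODE annotation used for gene coordinates, Msmo1 begins at chr8:64733792 and Hsd17b7 at chr1:169969241, inside the printed windows. By that annotation all CCAAT boxes printed for Msmo1, and the last printed for Hsd17b7, lie within the gene.

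The deposited values are scores in which each gene has a mean of 0 and an SD of 1 over the 20 libraries. A difference between groups is therefore in SD of that gene, is not a fold change, and cannot be set against the difference of another gene as a change in expression. Neither levels nor sequencing depth can be recovered from them. In bulk tissue, fewer cells of a type and less RNA per cell cannot be told apart. The aged libraries held more genes at a lowest value shared with another library (1956 to 3697 genes) than the others (686 to 1218 genes), and aged libraries 1 and 2 held the most. Markers of oocytes (8 of 8), granulosa cells (5 of 6), theca cells (3 of 4) and luteal cells (5 of 5) were in the table, and their absolute levels cannot be had from scores.

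The 17 enzymes were low in young ovaries and moved together from library to library. Their mean score was -1.24, -0.73, -1.14 and -1.26 in young libraries 1 to 4. It was 0.32, -0.78, 0.28 and -0.34 in the adult HEP14 libraries, against 1.3, 1.07, 0.11 and -0.046 in the adult libraries. It was 0.55, 1.11, -0.36 and 1.05 in the aged HEP14 libraries, against -0.52, 1.43, -0.58 and -0.24 in the aged libraries. The young group had the lowest mean of the 5 groups in 16 of the 17 enzymes, and Idi1 was the exception, with its lowest mean in aged ovaries. Within groups, 1 library often led the whole pathway. Aged library 2 was the highest aged library in 17 of 17 enzymes, and aged HEP14 library 3 was the lowest of its group in 17 of 17. Adult library 1 was the highest of its group in 11 enzymes and adult library 2 in the other 6, adult library 4 was the lowest in 13, and adult HEP14 library 2 was the lowest of its group in 14.

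**Figure D1:**
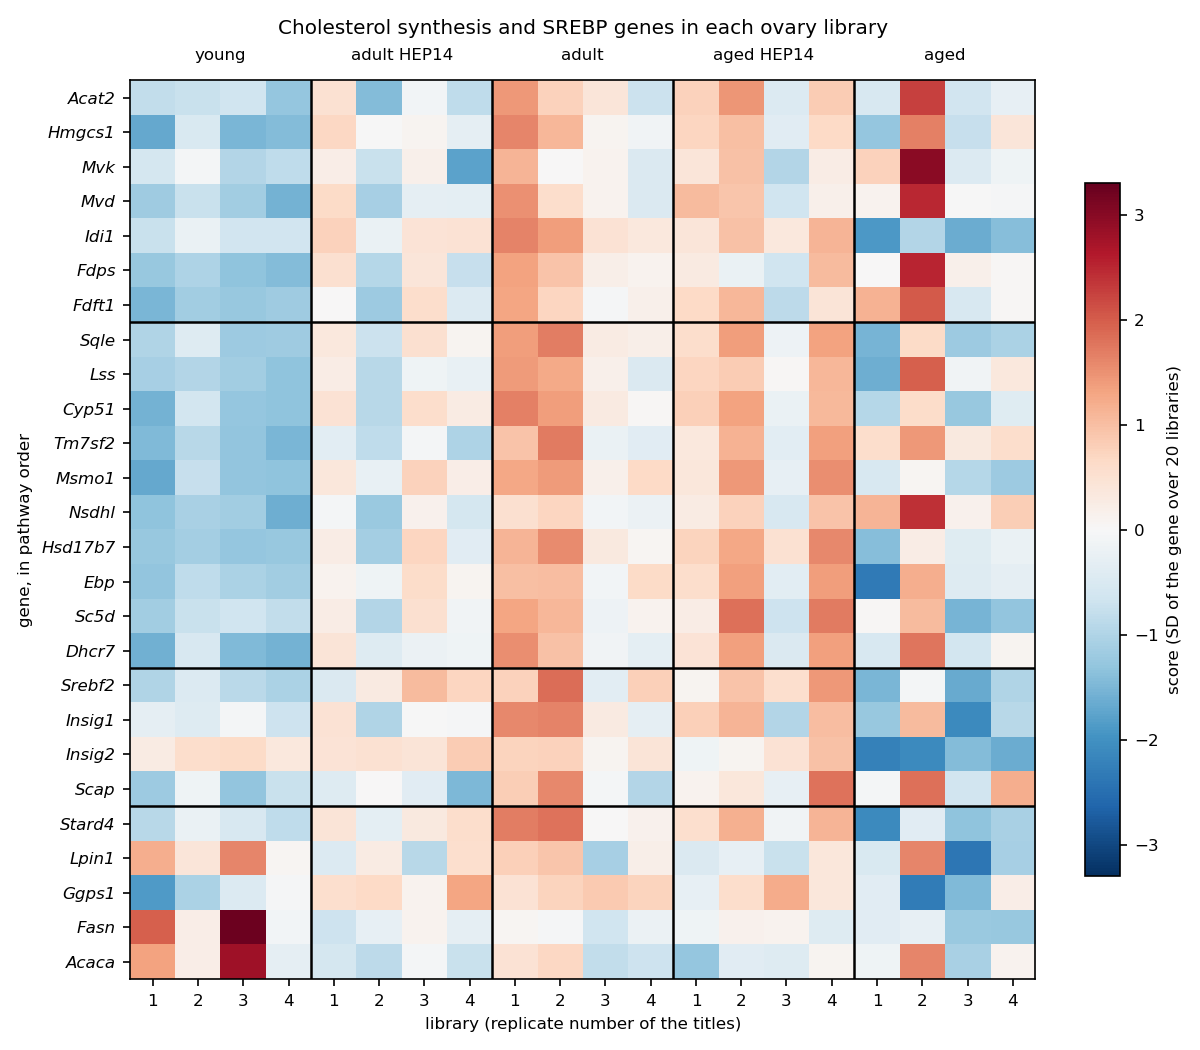
Score of each of the 26 genes (rows, in pathway order; lines separate enzymes up to squalene, enzymes from squalene on, regulators, and transport and lipid genes) in each of the 20 libraries (columns, 4 per group), in SD of the gene over all libraries. The enzymes are low in all 4 young libraries, and aged library 2 is high in most rows where the other aged libraries are not.

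Adult ovaries had higher scores than young ovaries across most of the pathway. Of the 26 genes, 16 rose and 0 fell (limma, adjusted p under 0.05 after Benjamini-Hochberg adjustment over all genes), whereas of all genes 2.75% were called higher and 9.92% in either direction. The median difference of the 26 genes was 1.57 SD, beside a median of -0.0058 SD over all genes. In 18 of the 26 genes every adult library lay above every young library, which held for 11.8% of all genes. No gene of the 26 lay apart in the other direction.

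In the early steps up to squalene, 4 of 7 enzymes rose in adult ovaries. Hmgcs1, which makes HMG-CoA, had scores of 1.6, 1.1, 0.093 and -0.11 in adult libraries 1 to 4, against -1.69, -0.50, -1.52 and -1.44 in young libraries 1 to 4. All 4 adult libraries lay above all 4 young ones, and the difference was 1.96 ± 0.53 (SE, adjusted p = 0.026). Fdps, which makes farnesyl diphosphate, had scores of 1.32, 0.95, 0.19 and 0.12 in adult ovaries, against -1.26, -1.01, -1.32 and -1.44 in young ovaries. The groups did not overlap, with a difference of 1.9 ± 0.52 (SE, adjusted p = 0.026). Idi1 (chr13:8885501-8892451 on GRCm38), the isomerase of the isoprenoid building blocks, rose by 1.52 ± 0.34 and Fdft1, the squalene synthase, by 1.81 ± 0.51, each without overlap. Acat2, Mvk and Mvd, which begin the chain and process mevalonate, differed by 1.33 ± 0.59, 0.81 ± 0.62 and 1.59 ± 0.55 and did not pass the test. Exons of Fdps share 26.7% of their bases with the predicted gene Gm43738 on the same strand, and exons of Fdft1 share 18.3% with Ctsb on the opposite strand. The handling of shared reads and of strand is not given in the sources used here, so the values of both are uncertain to that extent. Exons of Hmgcs1, Idi1, Lss, Cyp51, Scap and Ggps1 overlap genes on the opposite strand over 3.5% to 13.2% of their bases.

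From squalene to cholesterol, 9 of 10 enzymes rose in adult ovaries, and in 10 of 10 the adult libraries lay above the young ones. Msmo1, which oxidises the methyl groups at the sterol ring, had scores of 1.26, 1.4, 0.16 and 0.66 in adult ovaries, against -1.68, -0.77, -1.29 and -1.33 in young ovaries. Its difference of 2.14 ± 0.42 (SE, adjusted p = 0.00502) had the smallest adjusted p of the 26 genes. Hsd17b7, a reductase of the same demethylation step, had scores of 1.13, 1.57, 0.33 and 0.060 in adult ovaries, against -1.24, -1.13, -1.28 and -1.24 in young ovaries. The young libraries differed among themselves by little, and the difference was 2.0 ± 0.43 (SE, adjusted p = 0.00809). Cyp51, the lanosterol demethylase, had scores of 1.66, 1.39, 0.29 and 0.043 in adult ovaries, against -1.55, -0.62, -1.28 and -1.34 in young ovaries. Adult libraries 1 and 2 were the highest in this gene, and the difference was 2.04 ± 0.47 (SE, adjusted p = 0.012). Sqle, the squalene epoxidase that is a slow step of the chain, rose by 1.82 ± 0.48, and Lss, Tm7sf2, Nsdhl, Ebp and Dhcr7 rose by 1.53 to 1.81. Sc5d, the desaturase near the end of the chain, differed by 1.43 ± 0.58 (SE, adjusted p = 0.114) and was the 1 enzyme of this stretch that was not called. Exons of Tm7sf2 share 12.1% of their bases with Vps51 on the same strand.

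Among the regulators, Srebf2 (chr15:82147181-82205379 on GRCm38), which encodes the SREBP that mainly drives the sterol enzymes, had scores of 0.77, 1.84, -0.34 and 0.79 in adult ovaries, against -0.998, -0.44, -0.89 and -1.05 in young ovaries. Its groups did not overlap, with a difference of 1.61 ± 0.45 (SE, adjusted p = 0.0308). Insig1, which anchors the SREBP complex, and Scap, which escorts it, differed by 1.18 ± 0.59 and 1.19 ± 0.58 and were not called. Insig2 (chr1:121304353-121332589), the other anchor, differed by 0.041 ± 0.30. Stard4, a carrier that moves sterol between membranes, rose by 1.53 ± 0.44, and Ggps1, which makes geranylgeranyl diphosphate, rose by 1.55 ± 0.48.

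The fatty acid genes had negative differences, and none was called in the fit of all libraries. Fasn, the fatty acid synthase, had scores of 0.068, -0.051, -0.64 and -0.20 in adult ovaries, against 1.98, 0.22, 3.23 and -0.084 in young ovaries. Young libraries 1 and 3 were far above the rest, the groups overlapped, and the difference of -1.54 ± 0.52 (SE, adjusted p = 0.0595) did not pass. Fasn was called lower in 4 of the 15 alternatives, those without young library 2 (adjusted p = 0.033), without young library 4 (adjusted p = 0.0171), without aged libraries 1 and 2 (adjusted p = 0.0446) and with a variance for each group (adjusted p = 0.049). Acaca, which supplies malonyl-CoA to it, differed by -1.09 ± 0.60, and Lpin1, a phosphatidate phosphatase, by -0.62 ± 0.63, neither of them called. Markers of fat cells were also highest in young libraries 1 and 3. Their mean over 6 of 6 markers was -0.76, -0.27, -0.84 and -0.56 in adult ovaries, against 1.76, 1.19, 2.47 and 0.50 in young ovaries. All 6 were called lower in adult ovaries, beside 7.17% of all genes. In 4 of the 6, the lowest value was shared by at least 2 libraries. Their part in the values of these 3 genes was not tested.

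**Figure D2:**
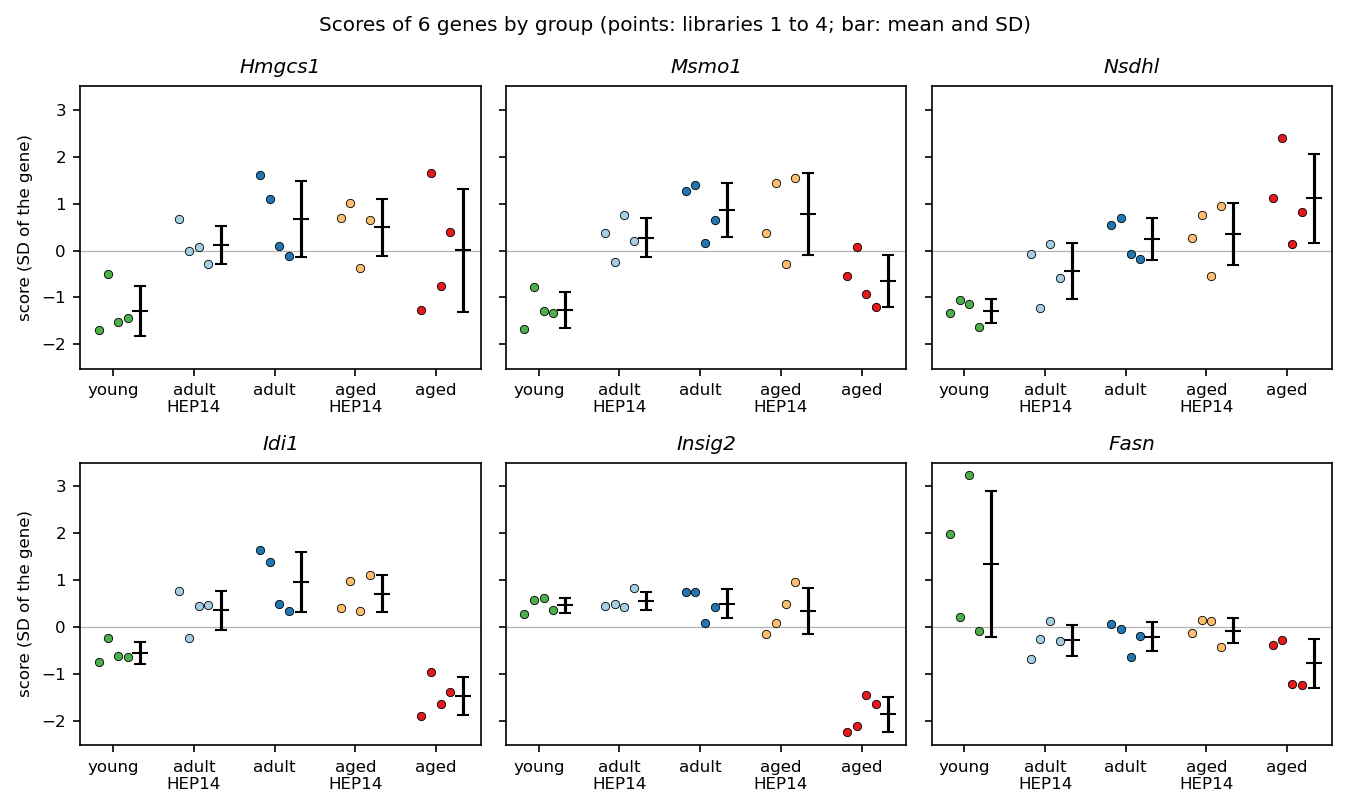
Scores of Hmgcs1, Msmo1, Nsdhl, Idi1, Insig2 and Fasn, in SD of the gene, in the 5 groups (points are libraries 1 to 4 from left to right, the bar is the mean with 1 SD). Msmo1 is low in young and aged ovaries, Nsdhl is low in young ovaries and high in aged ones, Insig2 is low in aged ovaries, and Fasn is high in young libraries 1 and 3.

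Of the other lists, shares called are to be read against 2.75% of all genes higher and 7.17% lower in adult than in young ovaries. Of 5 luteal markers, 4 were called higher. Their mean score was 0.79, 1.17, 0.26 and 0.21 in adult libraries, against -1.54, -0.69, -1.36 and -1.27 in young libraries, without overlap. Of 11 genes of steroid synthesis, 4 rose, among them Star, which carries cholesterol into mitochondria, by 2.14 ± 0.46 and Cyp11a1, which cuts its side chain, by 2.16 ± 0.44. Of 13 genes of sterol uptake and traffic, 2 rose and 1 fell, and Scarb1, the receptor that takes up cholesterol esters from high-density lipoprotein, rose by 2.24 ± 0.44 (SE, adjusted p = 0.00504). Soat1, which makes cholesterol esters, rose by 1.26 ± 0.31, as did 2 others of 7 genes of ester storage. Of 13 further genes of fatty acid synthesis, 1 rose and 1 fell, as in the 12 genes of SREBP processing. Of 8 liver X receptor and efflux genes 1 rose, and of 15 genes that use isoprenoids 0 were called. Other markers moved too: 3 of 4 markers of macrophages were higher, and 4 of 4 of the oviduct, 2 of 5 of stroma and 1 of 8 of oocytes were lower. The part of these cells in the enzymes' differences was not tested.

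The count of called genes between adult and young ovaries rested on several libraries. It was 4 without young library 1, 5 without young library 3, 9 without young library 4 (8 higher and Fasn lower), 5 without adult library 1 and 4 without adult library 2. Without young library 2 it was 13 (12 higher and Fasn lower), and without adult library 3 or adult library 4 it was 14 and 13. Cyp51, Hsd17b7, Idi1 and Msmo1 were called in every one of the 15 alternatives, and the other 12 genes lost their call in 2 to 9 of them. The highest adjusted p of these 12 ran from 0.0698 for Tm7sf2 to 0.171 for Ggps1, and none of the 16 changed direction in the alternatives run. Among the 10 genes not called in the main fit, Acat2, Mvd, Sc5d and Insig1 were called higher in some alternatives. In the limma fit with a variance for each group their adjusted p was 0.0264, 0.00824, 0.0201 and 0.0441.

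Aged ovaries differed from young ovaries in a large part of the table, with 74.3% of all genes called, 33% higher and 41.3% lower. Of the 26 genes, 10 rose and 4 fell, with a median difference of 0.66 SD beside -0.41 SD over all genes. In 6 genes every aged library lay above every young one and in 3 below, which held for 24.7% and 35.4% of all genes. As shares of the 26 genes, 38.5% were called higher, near the share of all genes, and 15.4% lower, below it, so 53.8% were called in either direction. The 3 genes whose aged libraries all lay below the young ones were 11.5% of the list. The sterol enzymes that rose were Hmgcs1, Mvk, Mvd, Fdps, Fdft1, Lss, Tm7sf2, Nsdhl and Dhcr7, and Scap rose as well. With library medians set equal, which moved the median difference of all genes to 0.012 SD, 14 rose and 2 fell.

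Nsdhl, the dehydrogenase of the demethylation step, had scores of 1.12, 2.4, 0.13 and 0.82 in aged ovaries, against -1.33, -1.06, -1.14 and -1.62 in young ovaries. Every aged library lay above every young one, and the difference of 2.4 ± 0.44 (SE, adjusted p = 6.45e-05) had the smallest adjusted p of the genes that rose. Tm7sf2, a sterol reductase, had scores of 0.57, 1.43, 0.32 and 0.57 in aged ovaries, against -1.46, -0.92, -1.3 and -1.52 in young ovaries. These groups did not overlap either, with a difference of 2.02 ± 0.45 (SE, adjusted p = 0.000459). Fdps had scores of 0.020, 2.51, 0.16 and 0.043 in aged ovaries, against -1.26, -1.01, -1.32 and -1.44 in young ovaries, and aged library 2 was far above the other 3. Its difference was 1.94 ± 0.52 (SE, adjusted p = 0.00222).

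Insig2, Idi1, Fasn and Lpin1 fell in aged ovaries relative to young ones. Insig2 had scores of -2.24, -2.1, -1.44 and -1.65 in aged ovaries, against 0.28, 0.58, 0.62 and 0.36 in young ovaries, which lay clear of each other. The difference was -2.32 ± 0.30 (SE, adjusted p = 1.18e-06). Fasn fell by 2.11 ± 0.52 without overlap, Idi1 by 0.92 ± 0.34 without overlap, and Lpin1 by 1.41 ± 0.63 with overlap. The calls of Fdps, Tm7sf2, Nsdhl and Insig2 were kept in all 15 alternatives, and each of the 8 libraries ended at least 1 other call when left out. Hmgcs1, Mvk, Lss, Scap and Lpin1 lost their call in 8 to 10 alternatives, Idi1 in 5, Dhcr7 in 3, Mvd in 2, and Fdft1 and Fasn in 1. The count of called genes was 9 without young library 1 and 9 without young library 3. Without aged library 2 it was 10, with Acaca called lower and the calls of Mvk, Lss, Hmgcs1, Dhcr7 and Scap lost at differences of 0.67, 0.68, 0.74, 0.94 and 1.02, and Mvd and Fdps then differed by 1.18 and 1.33. Without aged libraries 1 and 2 together it was 8, 4 higher and 4 lower.

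Cell type markers also differed between aged and young ovaries, and their counts are to be read against 41.3% of all genes lower and 33% higher. Of 8 oocyte markers 8 fell, with a mean of -1.88, -1.79, -0.85 and -1.47 in aged ovaries, against 1.35, 0.89, 0.75 and 1.4 in young ovaries. Of 5 stroma markers 5 fell, with a mean of -0.094, -2.2, -1.04 and -1.18 in aged ovaries, against 0.79, 1.51, 0.91 and 0.98 in young ovaries. Of 6 fat cell markers 5 fell and of 4 oviduct markers 3 fell. Both endothelial markers fell, as did 2 of 5 granulosa and 2 of 3 smooth muscle markers. Of 3 theca markers 1 rose and 1 fell, and of 4 markers of the surface epithelium 2 rose and 2 fell. Of 5 luteal markers 4 rose and 1 fell, with a mean of -0.34, 0.62, -0.40 and 0.053 in aged ovaries, against -1.54, -0.69, -1.36 and -1.27 in young ovaries and without overlap. Of 4 T cell markers 4 rose, with a mean of 1.64, 2.61, 0.55 and 1.47 in aged ovaries, against -0.87, -1.2, -1.19 and -0.89 in young ovaries. Of 4 macrophage markers 3 rose and 1 fell, and of 4 markers of B and plasma cells 3 rose. The part of these cells in the differences of the 26 genes was not tested.

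Between aged and adult ovaries 10 of the 26 genes fell and 0 rose, beside 35.7% of all genes called lower and 66.8% called in either direction. The median difference was -0.73 SD, beside -0.26 SD over all genes. In 5 genes every aged library lay below every adult one, which held for 27.8% of all genes. As shares of the 26 genes, 38.5% were called lower, near the share of all genes, and 0% higher, against 31.1% of all genes. With library medians set equal, which moved the median of all genes to 0.086 SD, 7 fell and Nsdhl was called higher. The genes that fell were Idi1, Sqle, Cyp51, Msmo1 and Hsd17b7 among the enzymes, Srebf2, Insig1 and Insig2 among the regulators, and Stard4 and Ggps1.

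Idi1 had scores of -1.89, -0.95, -1.65 and -1.39 in aged ovaries, against 1.64, 1.39, 0.48 and 0.34 in adult ovaries. All aged libraries lay below all adult ones, with a difference of -2.43 ± 0.34 (SE, adjusted p = 5.08e-06). Msmo1 had scores of -0.53, 0.075, -0.93 and -1.21 in aged ovaries, against 1.26, 1.4, 0.16 and 0.66 in adult ovaries. The closest libraries of the groups were aged library 2 and adult library 3, and the difference was -1.52 ± 0.42 (SE, adjusted p = 0.00326). Sqle had scores of -1.52, 0.64, -1.2 and -1.04 in aged ovaries, against 1.38, 1.69, 0.26 and 0.20 in adult ovaries, and aged library 2 overlapped with the adult group. The difference was -1.66 ± 0.48 (SE, adjusted p = 0.00479). Cyp51 and Hsd17b7 fell by 1.35 ± 0.47 and 1.21 ± 0.43, with overlap.

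The regulators Insig2 and Srebf2 fell in aged ovaries as well. Insig2 differed from adult ovaries, where it had scores of 0.74, 0.75, 0.082 and 0.43, by -2.36 ± 0.30 (SE, adjusted p = 1.59e-06). Srebf2 had scores of -1.51, -0.057, -1.67 and -0.99 in aged ovaries, against 0.77, 1.84, -0.34 and 0.79 in adult ovaries. Adult library 3 lay within the aged range, and the difference was -1.82 ± 0.45 (SE, adjusted p = 0.00156). Insig1 fell by 1.61 ± 0.59 and lost its call in 8 of 15 alternatives, with an adjusted p of up to 0.11, among them the fits without adult library 1 or 2 and without aged library 1 or 3. Stard4 had scores of -2.09, -0.37, -1.34 and -1.07 in aged ovaries, against 1.68, 1.8, 0.018 and 0.14 in adult ovaries, without overlap, and fell by 2.13 ± 0.44. Ggps1 fell by 1.68 ± 0.48, also without overlap.

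The remaining enzymes did not pass the test between aged and adult ovaries. Mvk, Mvd, Fdps, Fdft1, Tm7sf2 and Nsdhl had positive differences of 0.039 to 0.87, and Acat2, Hmgcs1, Lss, Ebp, Sc5d and Dhcr7 had negative ones of -1.11 to -0.26. In all of them aged library 2 stood above the other aged libraries, for example Hmgcs1 with scores of -1.27, 1.66, -0.76 and 0.39 in aged ovaries. With that library left out, the differences of Mvk, Mvd, Fdps, Fdft1 and Tm7sf2 were negative, and that of Nsdhl stayed positive. Of the 16 genes not called, 10 changed sign in at least 1 alternative. Without aged library 2, 14 genes were called lower, the added ones being Hmgcs1, Ebp, Sc5d and Lpin1. Idi1, Srebf2, Insig2 and Stard4 were called in all 15 alternatives. Sqle, Msmo1 and Ggps1 lost their call in 1 of them, the fit with a variance of its own for each group, and Cyp51 and Hsd17b7 in 7 of them each. For Cyp51 these included the fits without adult library 1 or 2 and without aged library 3, with an adjusted p of up to 0.128. For Hsd17b7 they included those without adult library 2 and without aged library 1, with one of up to 0.15. Without aged library 3 Nsdhl was called higher.

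Other genes of the pathway were called in both directions between aged and adult ovaries, as were 35.7% (lower) and 31.1% (higher) of all genes, and several of the counts here lie near these shares. Of 12 genes of SREBP processing, 8 fell and 3 rose. Mbtps2, a protease that releases SREBPs, fell by 2.45 ± 0.30, Erlin2, which is known to bind INSIG and SCAP complexes, fell by 2.4 ± 0.28, and Nfyc, a subunit of NF-Y, rose by 2.24 ± 0.29. Of 13 further genes of fatty acid synthesis 10 fell, among them Scd2, a desaturase, by 2.6 ± 0.29. Of 13 genes of uptake and traffic 6 fell and 2 rose, and Npc2, the lysosomal cholesterol carrier, fell by 2.51 ± 0.32. Of 7 genes of ester storage 4 fell and 1 rose, and Soat1 fell by 2.32 ± 0.31. Of 15 genes that use isoprenoids 9 fell and 6 rose. Of 11 genes of steroid synthesis 4 fell and 1 rose, and Hsd3b1, which makes progesterone, fell by 1.24 ± 0.44. Of 8 liver X receptor and efflux genes 4 rose and 3 fell, and Nr1h2, which encodes a liver X receptor, rose by 2.3 ± 0.28. Of 5 luteal markers 2 fell, with a mean of -0.34, 0.62, -0.40 and 0.053 in aged ovaries, against 0.79, 1.17, 0.26 and 0.21 in adult ovaries, and 4 of 4 T cell markers rose. Of 8 oocyte markers 7 fell, with a mean of -1.88, -1.79, -0.85 and -1.47 in aged ovaries, against 0.24, -0.17, 0.66 and 0.35 in adult ovaries, without overlap. Both endothelial markers in the table fell, with a mean of -1.96, -0.74, -1.89 and -1.64 in aged ovaries, against 1.56, 1.42, -0.26 and -0.47 in adult ovaries. Of 5 granulosa and 5 stroma markers 2 each fell, and of 4 B and plasma cell markers 2 rose. The part of these cells in the differences was not tested.

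Aged HEP14 ovaries had higher scores than aged ovaries in 9 of the 26 genes, and 0 were lower. As shares of the 26 genes, 34.6% were called higher, near the 33.2% of all genes, and 0% lower, against 29.3% of all genes. In either direction 62.5% of all genes were called. The median difference was 0.61 SD, beside 0.31 SD over all genes. In 5 genes every aged HEP14 library lay above every aged one, which held for 25.8% of all genes. With library medians set equal, which moved the median of all genes to -0.057 SD, 7 were higher and Nsdhl was lower. The comparison shares its aged libraries with the comparison of aged and adult ovaries, so the differences of both are not independent.

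Insig2 had scores of -0.14, 0.080, 0.48 and 0.97 in aged HEP14 ovaries, against -2.24, -2.1, -1.44 and -1.65 in aged ovaries. All 4 HEP14 libraries lay above all 4 aged ones, with a difference of 2.21 ± 0.30 (SE, adjusted p = 4.87e-06). Idi1 had scores of 0.40, 0.98, 0.34 and 1.11 in aged HEP14 ovaries, against -1.89, -0.95, -1.65 and -1.39 in aged ovaries. The gap between the groups was wider than the range of either, and the difference was 2.18 ± 0.34 (SE, adjusted p = 2.21e-05). Stard4 had scores of 0.56, 1.16, -0.10 and 1.12 in aged HEP14 ovaries, against -2.09, -0.37, -1.34 and -1.07 in aged ovaries, and Srebf2 had 0.088, 0.94, 0.55 and 1.43 in aged HEP14 ovaries, against -1.51, -0.057, -1.67 and -0.99 in aged ovaries. Neither overlapped, and they rose by 1.9 ± 0.44 (SE, adjusted p = 0.001) and 1.81 ± 0.45 (SE, adjusted p = 0.00186).

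Hsd17b7 also lay apart, with scores of 0.74, 1.27, 0.51 and 1.59 in aged HEP14 ovaries, against -1.39, 0.24, -0.39 and -0.21 in aged ovaries and a difference of 1.47 ± 0.43 (SE, adjusted p = 0.00565). Sqle, Msmo1, Ggps1 and Cyp51 rose with overlap, by 1.56 ± 0.48, 1.42 ± 0.42, 1.46 ± 0.48 and 1.24 ± 0.47. Msmo1 had scores of 0.38, 1.43, -0.28 and 1.54 in aged HEP14 ovaries, against -0.53, 0.075, -0.93 and -1.21 in aged ovaries, and aged HEP14 library 3 lay within the aged range. Insig1 differed by 1.29 ± 0.59 (SE, adjusted p = 0.0622) and Ebp by 1.21 ± 0.53 (SE, adjusted p = 0.052), neither of them called. Mvk, Mvd, Fdps, Fdft1, Tm7sf2 and Nsdhl had negative differences of -0.76 to -0.099, and none passed. With aged library 2 left out, only Nsdhl of these genes kept a negative difference. Of the 17 genes not called, 8 changed sign in at least 1 alternative.

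Idi1, Srebf2, Insig2 and Stard4 were called higher in aged HEP14 ovaries in all 15 alternatives. Sqle, Msmo1 and Hsd17b7 lost their call in 1, the fit with a variance of its own for each group. Cyp51 lost it in 9 alternatives, among them those without aged library 1 or 3 and without aged HEP14 library 1, 2 or 4, with an adjusted p of up to 0.169. Ggps1 lost it in 7, among them those without aged library 2 and without aged HEP14 library 3, with one of up to 0.118. The count of called genes was 8 to 12 when 1 library was left out. Without aged library 2 it was 12, with Ebp, Insig1, Lss and Sc5d added and Ggps1 lost, and without aged library 3 Nsdhl was called lower. Without aged libraries 1 and 2 together the count was also 12.

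Among other genes of the pathway, 7 of 12 genes of SREBP processing rose and 3 fell in aged HEP14 ovaries relative to aged ovaries. Of all genes 33.2% were higher and 29.3% lower in this comparison, and several of the counts here lie near these shares. Mbtps2 rose by 2.33 ± 0.30, Erlin2 rose by 2.17 ± 0.28 and Nfyc fell by 2.19 ± 0.29. Of 13 further genes of fatty acid synthesis 9 rose, among them Scd2 by 2.38 ± 0.29. Of 13 genes of uptake and traffic 5 rose and 2 fell, with Npc2 higher by 2.39 ± 0.32. Soat1 had scores of 0.34, 1.5, 0.55 and 1.29 in aged HEP14 ovaries, against -1.13, -1.68, -1.73 and -1.7 in aged ovaries, and rose without overlap by 2.48 ± 0.31 (SE, adjusted p = 2.99e-06). Of 7 genes of ester storage 4 rose and 1 fell, of 11 genes of steroid synthesis 4 rose and 1 fell, of 8 liver X receptor and efflux genes 3 rose and 4 fell, and of 15 genes that use isoprenoids 8 rose and 6 fell. Of 5 luteal markers 2 rose, with a mean of 0.14, 0.53, 0.32 and 0.94 in aged HEP14 ovaries, against -0.34, 0.62, -0.40 and 0.053 in aged ovaries. T cell markers moved the other way, with 4 of 4 called lower and a mean of -0.024, 0.026, -0.083 and -0.089 in aged HEP14 ovaries, against 1.64, 2.61, 0.55 and 1.47 in aged ovaries. Of 8 oocyte markers 6 rose, with a mean of 0.41, 0.19, -0.75 and -0.64 in aged HEP14 ovaries, against -1.88, -1.79, -0.85 and -1.47 in aged ovaries. Both endothelial markers rose, with a mean of 0.092, 0.75, 0.58 and 1.19 in aged HEP14 ovaries, against -1.96, -0.74, -1.89 and -1.64 in aged ovaries, and 3 of 5 granulosa markers rose. Of 4 B and plasma cell markers 2 fell. The part of these cell types in the differences was not tested.

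**Figure D3:**
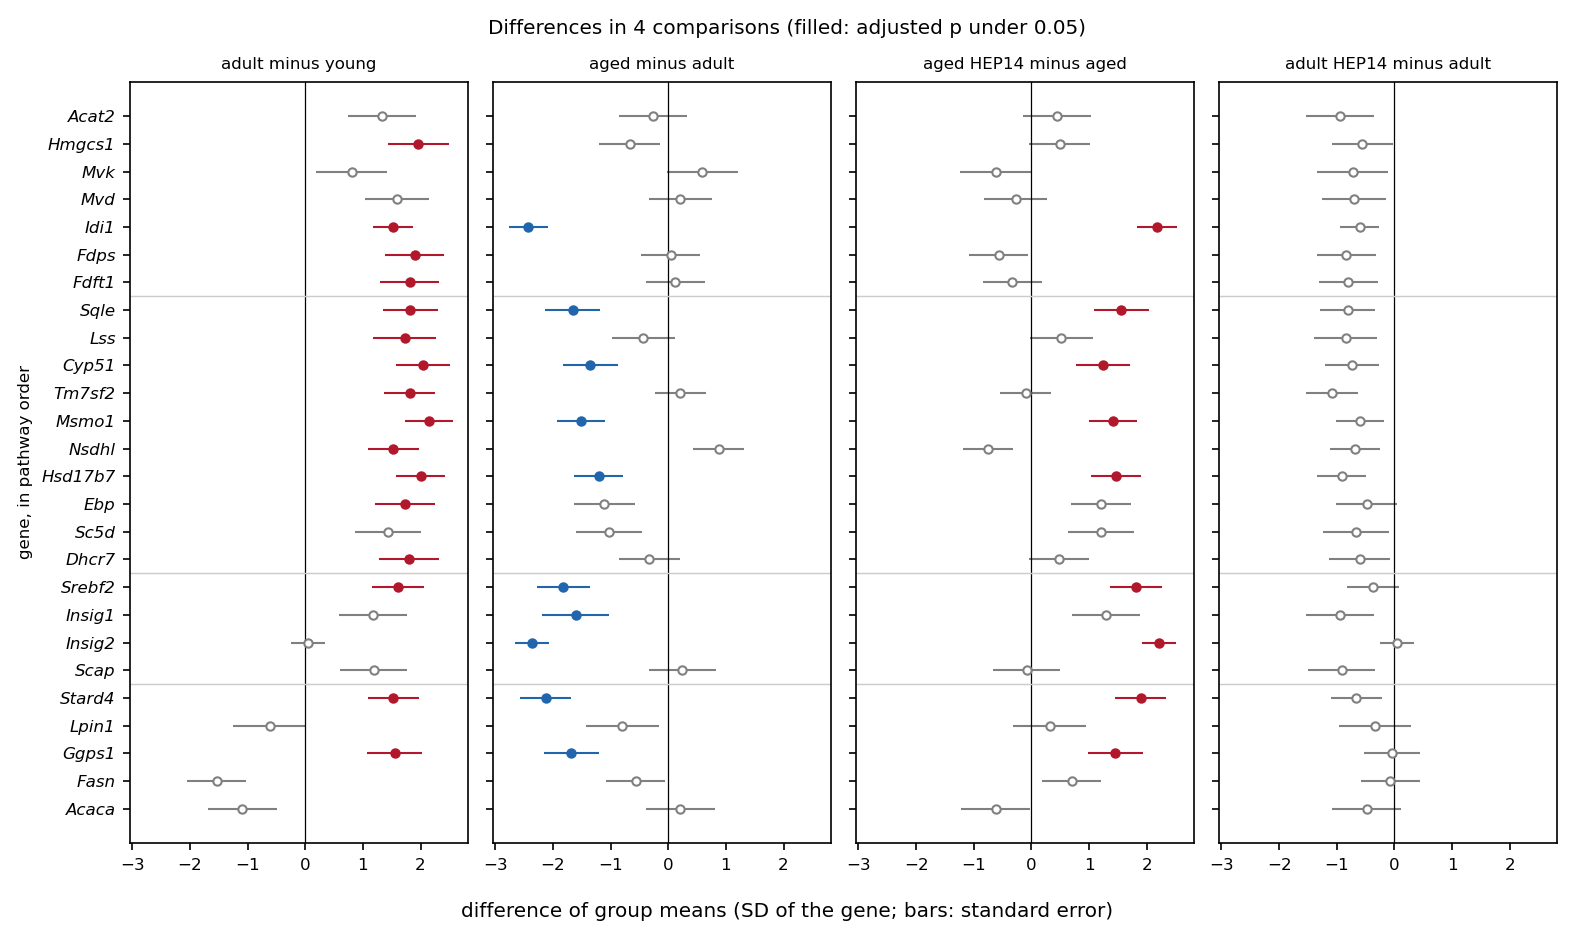
Difference of group means for each of the 26 genes, in SD of the gene with its standard error, in 4 comparisons. Filled points passed at an adjusted p under 0.05 (red higher, blue lower): 16 higher in adult than young ovaries, 10 lower in aged than adult ovaries, 9 higher in aged HEP14 than aged ovaries and 0 in adult HEP14 than adult ovaries.

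In adult mice no gene of the 26 was called after HEP14. By limma, 0 of 26 passed after adjustment and 2, Tm7sf2 and Hsd17b7, were lower at an unadjusted p under 0.05. Of all genes 0.00567% were called, which is 1 gene, the predicted gene Gm38115, and 1.95% had an unadjusted p under 0.05, 0.81% with a lower score. The differences of 25 of the 26 genes were below 0, with a median of -0.67 SD beside -0.00064 SD over all genes, and Insig2 was the exception at 0.049 ± 0.30. Tm7sf2 had scores of -0.35, -0.84, -0.058 and -1.03 in adult HEP14 ovaries, against 0.93, 1.71, -0.21 and -0.37 in adult ovaries. The groups overlapped and its difference of -1.08 ± 0.45 (SE, adjusted p = 1) had the smallest unadjusted p of the 26. Hmgcs1 had scores of 0.68, -0.011, 0.081 and -0.29 in adult HEP14 ovaries, against 1.6, 1.1, 0.093 and -0.11 in adult ovaries. Only adult libraries 1 and 2 stood above all adult HEP14 libraries in this gene. The genes share these libraries, so 25 differences of 1 sign are not 25 separate observations.

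In 9 of the 26 genes the difference between HEP14 and other ovaries was not the same in aged as in adult mice. In all 9 the difference, HEP14 minus other ovaries, was higher in aged than in adult mice. Of all genes 24.9% were called higher in this test of the interaction and 47.3% in either direction. The test shares its aged and adult libraries with the comparison of aged and adult ovaries, where all 9 genes were called lower. The results of both are therefore not independent. The labels give vehicle for the aged controls and do not say so for the adult ones. Idi1 differed by 2.18 between aged HEP14 and aged ovaries and by -0.60 between adult HEP14 and adult ovaries, and the difference of these was 2.78 ± 0.48 (SE, adjusted p = 0.00032). Stard4 differed by 1.9 in aged and -0.67 in adult mice, an interaction of 2.57 ± 0.63 (SE, adjusted p = 0.00268). For Insig2 the values were 2.21 in aged and 0.049 in adult mice, and the interaction was 2.16 ± 0.42 (SE, adjusted p = 0.000568). Hsd17b7, Sqle, Insig1, Srebf2, Msmo1 and Cyp51 had interactions of 2.38, 2.37, 2.23, 2.18, 2.01 and 1.98. Insig1 lost its call in 12 of 23 alternatives, with an adjusted p of up to 0.0814, among them the fits without adult library 1 or 2, adult HEP14 library 2, aged library 1 or 3, or aged HEP14 library 1, 2 or 4. Cyp51 lost it in 3, with an adjusted p of up to 0.0669, and the other 7 lost it in none of the 23. Without aged library 2, 15 genes were called. With library medians set equal 7 were called, and over all genes 3178 were then higher and 4645 lower, beside 4389 higher and 3955 lower before.

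Aged HEP14 ovaries also lay above young ovaries in much of the pathway. Of the 26 genes 14 rose and 0 fell, beside 5.38% of all genes called higher and 15.9% in either direction. The median difference was 1.56 SD, beside -0.012 SD over all genes. In 17 of the 26 genes the aged HEP14 libraries lay above the young ones, which held for 16.5% of all genes. Hsd17b7 had scores of 0.74, 1.27, 0.51 and 1.59 in aged HEP14 ovaries, against -1.24, -1.13, -1.28 and -1.24 in young ovaries. The lowest aged HEP14 library was far above the highest young one, and the difference was 2.25 ± 0.43 (SE, adjusted p = 0.00218). Msmo1 and Dhcr7, the last reductase of the chain, rose by 2.04 ± 0.42 and 1.95 ± 0.53. Insig2 differed by -0.11 ± 0.30 and Fasn by -1.41 ± 0.52, neither of them called, although Fasn was called lower in 3 of the 15 alternatives. Of 8 oocyte markers 8 and of 6 fat cell markers 5 were lower in aged HEP14 than in young ovaries, and 4 of 5 luteal and 3 of 4 macrophage markers were higher. Of all 17651 genes, 1848 were called lower and 950 higher. Markers of other lists were called as well. Among them, Trbc2 of T cells was higher by 1.12 ± 0.29, and Col3a1 of stroma and Pax8 of the oviduct were lower by 2.15 ± 0.40 and 1.67 ± 0.48. Their part in the differences was not tested. The young libraries are those of the comparison of adult and young ovaries. The count of called genes was 6 without young library 1, 7 without young library 3, 4 without aged HEP14 library 2 and 4 without aged HEP14 library 4. Cyp51, Hsd17b7, Msmo1 and Tm7sf2 kept their call in all 15 alternatives.

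The genes that fell in aged ovaries had transcripts with a lower share of G and C bases than the rest of the list. The longest protein-coding transcript held 45.6% (median of 10 genes, 40.1% to 57.9%) in the genes lower in aged than in adult ovaries, against 52% (median) in the other 16 genes and 49.5% over all genes. Pearson's r between GC content and the difference of aged and adult ovaries was 0.56 over the 26 genes, 0.65 over the 17 enzymes and 0.23 over 17630 genes of the table. For aged HEP14 and aged ovaries it was -0.53, -0.67 and -0.17. These are correlations across genes that share the same libraries, and genes are not independent replicates. Over the whole table, genes called lower in aged than in adult ovaries had a median GC content of 47.8%, against 52% in those called higher. Srebf2, with 57.9%, fell although its GC content was high, and Hmgcs1, Sc5d and Nsdhl did not pass although theirs was 43.1%, 42.9% and 45.8%. With the trend on GC content removed from each library, 8 genes were lower and Nsdhl higher between aged and adult ovaries, with the calls of Cyp51, Hsd17b7 and Insig1 lost and Fasn called lower. Between aged HEP14 and aged ovaries 7 were then higher, with the calls of Cyp51 and Ggps1 lost. The part of GC content in the remaining differences was not tested.

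**Figure D4:**
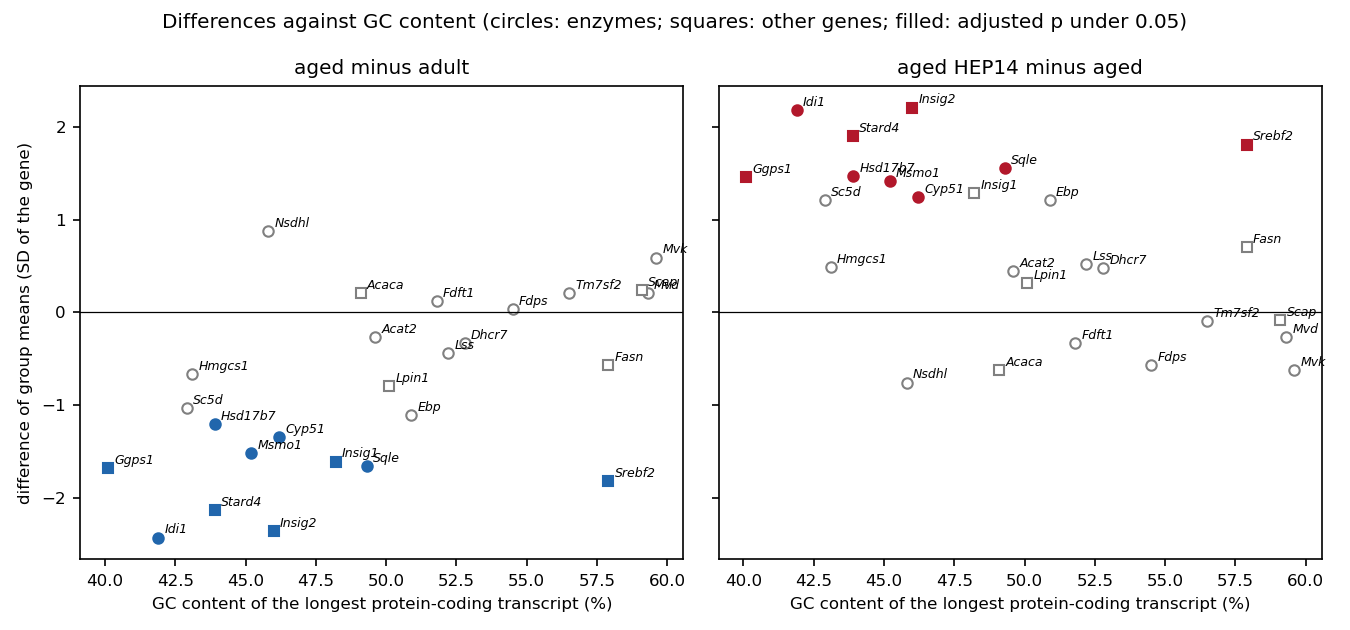
GC content of the longest protein-coding transcript (percent, x axis) against the difference between aged and adult ovaries (left) and between aged HEP14 and aged ovaries (right), in SD of the gene, for the 26 genes. Circles are sterol enzymes and squares the other genes, and filled symbols passed the test. The genes lower in aged than in adult ovaries had a median GC content of 45.6%, and Srebf2 stands apart at 57.9%.

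From library to library the enzymes moved together, also within groups. Pearson's r of each enzyme with the mean of the other 16 over the 20 libraries was 0.56 (Idi1) to 0.97 (Dhcr7), with a median of 0.86, whereas the median over all genes with the enzymes' mean was -0.033. After each group's mean was subtracted, the median of the enzymes was again 0.86, with a range of 0.77 to 0.96. In the 16 libraries outside the aged group Idi1 reached 0.96, against 0.56 over all 20. Insig1 and Stard4 also followed the enzymes within groups, with r of 0.94 and 0.86, and Srebf2 did less closely, with 0.58. Insig2 did not follow them, with -0.021 over 20 libraries and 0.026 within groups, and neither did Fasn, with -0.35 and 0.1. Ggps1 had 0.15 over 20 libraries and -0.51 within groups, the lowest of the 26 genes within groups. Acaca had -0.028 and 0.56, and Lpin1 had 0.1 and 0.56. These values are descriptions, and the points share libraries and their depth.

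Outside the list, the gene whose scores were most like the enzymes' mean was Scarb1, with r of 0.96 over 20 libraries, 0.94 within groups and 0.98 without the aged group. Its scores were -1.86, -0.99, -1.33 and -1.32 in young libraries 1 to 4. They were 0.59, -0.82, 0.41 and -0.17 in adult HEP14 ovaries, against 1.31, 1.48, 0.33 and 0.34 in adult ovaries, and 0.52, 1.09, -0.039 and 1.48 in aged HEP14 ovaries, against -0.50, 0.84, -0.99 and -0.36 in aged ovaries. The libraries that stood high or low in the enzymes, such as aged library 2 and adult HEP14 library 2, did so in Scarb1. Among the 10 most alike over 20 libraries were also Cst8, Rhod, Cish and the predicted gene Gm3571, with r of 0.93, 0.91, 0.91 and 0.92. Within groups Apol6, Tlcd1 and Mapkapk3 were among the 10, with r of 0.93, 0.91 and 0.91.

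**Figure D5:**
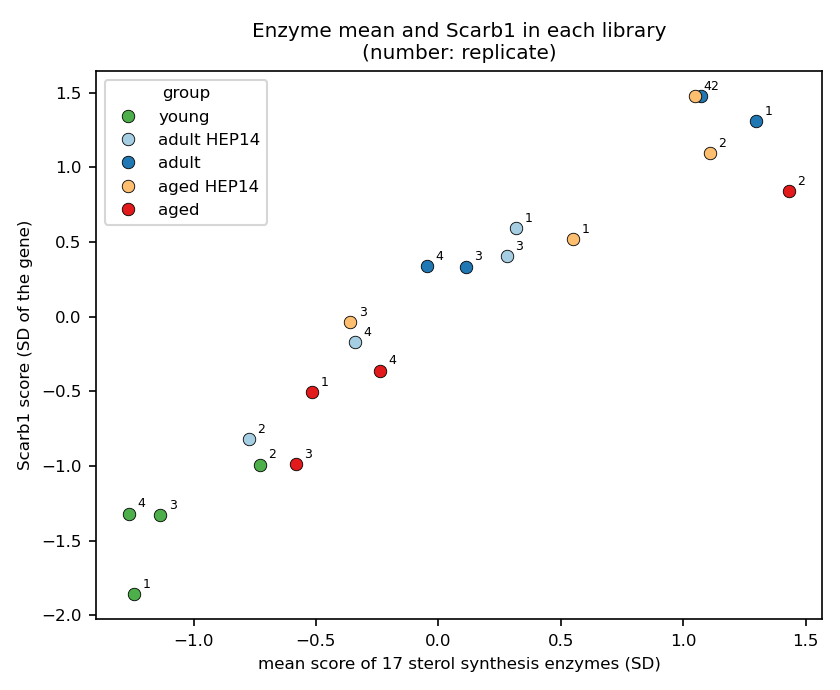
Mean score of the 17 sterol synthesis enzymes (x axis) and score of Scarb1 (y axis) in each of the 20 libraries, in SD, with the group as colour and the replicate number beside the point. Aged library 2 lies with the high adult and aged HEP14 libraries, and the 4 young libraries lie at the lower left.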

How the data were processed

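RNA of 20 whole-ovary libraries was analysed, 4 in each of 5 groups taken from the sample titles. The tools listed in the submitters' processing notes are DESeq2 1.20.0, HISAT2 2.0.5 and featureCounts 1.5.0-p3. What each did, the genome build and the strand setting are not stated there. The deposited table holds scores: in it the authors' values of each gene have a mean of 0 and an SD of 1 over the 20 libraries, as the values themselves show, and the expression unit before scaling is not stated. Depth per library is unknown, so no count model, pseudocount or counting interval was used, and the number of libraries limits the precision.

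Of 17651 gene identifiers 17630 matched GENCODE M21 symbols and 21 did not. Group means of every gene were fitted over the 20 libraries together (limma 3.58.1, R 4.3.3, moderated without a trend), and two-sided p-values were adjusted by Benjamini-Hochberg over all genes within each of 7 comparisons, at 0.05. The fit was tested on simulated data. All genes of the list that were in the table are named. Of each other list, at most 3 genes with the smallest p were named in the comparisons of adult and young, aged and adult, and aged HEP14 and aged ovaries. The gene list, the other lists and the markers were chosen with earlier results of these data known. The alternatives were the groups compared alone, a variance per group, equal library medians, no genes with a tied lowest value, the replicate number as a block, each library left out in turn, and, added after seeing the data, no aged libraries 1 and 2 and a GC trend (lowess) removed from each library.

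GC content is that of the longest protein-coding transcript in GENCODE M21. Gene coordinates are from the same annotation on GRCm38, and promoters from RefSeq on GRCm38.p6. Either build may differ from the authors'. Differences are given as the first named group minus the second.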

Additional observations from a re-analysis of the deposited data

Results flagged for a closer look

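In 5 of the 130 gene and group combinations checked, 1 library stood apart from the other 3 by Dixon's test, and chance flags about 1 in 20 groups. Acat2, Mvd and Fdps had scores of 2.26, 2.49 and 2.51 in aged library 2, above the other aged libraries. Dhcr7 had a score of -0.52 in young library 2, above the other young libraries. Insig1 had a score of -0.96 in aged HEP14 library 3, below the rest of its group.

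In 9 genes the difference between HEP14 and other ovaries was not the same in aged as in adult mice. The test was the interaction in limma with Benjamini-Hochberg adjustment over all genes, at an adjusted p of 0.00032 for Idi1 to 0.0331 for Insig1. The interaction was 2.78 SD for Idi1, 2.57 for Stard4, 2.38 for Hsd17b7, 2.37 for Sqle, 2.23 for Insig1, 2.18 for Srebf2, 2.16 for Insig2, 2.01 for Msmo1 and 1.98 for Cyp51. All 9 genes were also called lower in aged than in adult ovaries, in libraries that this test shares. Of all genes 24.9% were called higher in the same test.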

How the results depend on the processing

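None of the 72 called results of the 26 genes changed direction in any alternative run, and over all repeats 922 kept the call and 230 lost it. The fits of the groups alone, with a variance per group, without tied genes or with the replicate block leave the differences themselves unchanged. Direction could therefore change only in the other alternatives. Genes not called did change sign in some: 10 of 16 between aged and adult, 8 of 17 between aged HEP14 and aged, and 5 of 12 between aged and young ovaries. In each other comparison 1 to 4 genes did. Of 220 results of other named genes, 3281 repeats kept the call and 299 lost it, again without a change of direction. These genes were picked for the smallest p of their lists in the same data, which favours kept calls. Their counts are therefore no measure of how stable other genes are. The counts that moved by over 1.5 times are given here, and the cause was not tested except where a setting holds fewer genes or libraries by construction.

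With the groups compared alone, the 26 genes gave 9 calls between aged and young ovaries (14 in the fit of all groups), and all genes gave 3789 calls between adult and young ovaries (1751), 5576 between aged HEP14 and young ovaries (2798) and 0 between adult HEP14 and adult ovaries (1). With a variance for each group, the 26 genes gave 6 calls between aged and young, 4 between aged and adult (10) and 4 between aged HEP14 and aged ovaries (9), and all genes gave 5174 between adult and young and 6454 between aged HEP14 and young ovaries. Without genes with a tied lowest value there were 784, 1786 and 0 calls of all genes between adult and young, aged HEP14 and young, and adult HEP14 and adult ovaries. Without aged libraries 1 and 2 there were 3618, 5088 and 0 in these comparisons, and 8 of the 26 genes were called between aged and young ovaries. With the GC trend removed 0 genes were called between adult HEP14 and adult ovaries.

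Leaving out 1 library gave 9 to 13 calls of the 26 genes between aged and young, 4 to 14 between adult and young (628 to 1475 of all genes), 4 to 18 between aged HEP14 and young (1520 to 3318 of all genes), 0 to 4 of all genes between adult HEP14 and adult ovaries, and 8 to 15 for the interaction.

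Same-numbered libraries of different groups did not deviate together: over 40 pairs the correlation of their deviations was -0.422 to 0.155, with a median of 0.021. With the replicate block 15 of the 26 genes were called between adult and young ovaries (16), 10 between aged HEP14 and aged ovaries (9) and 14 between aged HEP14 and young ovaries (14), where the call of Stard4 was lost. Of all genes 0 were then called between adult HEP14 and adult ovaries. The counts of the 26 genes in the other comparisons were the same. Scores limit all sizes to SD of each gene, and with 4 libraries a group the tests cannot show small differences.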
